A study of Mus musculus with 8 samples.

Results

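Gene expression in Cnot4-null spermatocytes was compared with that in WT spermatocytes at the pachytene and diplotene (PD) stage, with 2 libraries of each genotype. All genes with an FPKM above 1 in at least 1 of these 4 libraries were included. These were 15349 of the 23235 symbols in the values, and 14070 of them have a protein-coding model. The RNA came from spermatocytes of male C57BL/6 mice of 6 weeks, sorted by fluorescence after staining of the DNA, at the leptotene and zygotene (LZ) and at the PD stage. Cnot4-null males carried Cnot4 fl/fl together with Stra8-Cre, whose promoter is active in germ cells before meiosis, so the other cells of their testes were not targeted. The genotype of the WT males is not described further in the sources used here. The duplicates are described as biological replicates. Of the 8 libraries in all, the other 4 are LZ libraries, 2 of each genotype, and they entered the same statistical model. A cDNA amplification from sorted cells is given in the methods, but the labels describe a total RNA kit, and which was used was not determined here. Levels are in FPKM (mapped fragments scaled to transcript length and library size), and a change is the difference of the mean log2(FPKM + 1), Cnot4-null minus WT, a scale that understates changes of low genes. A gene is called higher or lower where the linear model of limma gave an adjusted p under 0.05.

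CNOT4 is a RING-type E3 ubiquitin ligase of the CCR4-NOT complex, which shortens the poly(A) tails of mRNAs and so starts their decay. Spermatocytes pass through meiotic prophase with large changes of their transcripts: homologous chromosomes pair and recombine, the X and Y chromosomes are silenced at the pachytene stage, and many genes of later sperm development are switched on. Transcripts of earlier stages are cleared at the same time.

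Cnot4 was measured first. It lies on chromosome 6 of mm9 from 34972066 to 35083737 and was listed at 76.6 and 73.1 FPKM in the WT duplicates, against 65.9 and 53.5 FPKM in the Cnot4-null duplicates. The genotypes did not overlap, but the difference was not called (log2 change -0.33, standard error 0.20, limma adjusted p = 0.190). The change was -1.04 relative to the median gene and -0.22 after quantile normalization, and among the alternatives the lowest adjusted p was 0.000516, with each library at the same median (-1.66), and the highest 0.411, without WT PD replicate 1. At LZ the 4 values lay between 34.6 and 43.2 FPKM. A single value per gene cannot show the loss of an exon, and genotypes rest on the labels.

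The Cnot4-null PD libraries held RNA of more genes than the WT PD libraries, and their duplicates lay further apart. The number of symbols listed at 0 was 7154 and 7380 in the WT duplicates, against 5061 and 6016 in the Cnot4-null duplicates. The median tested gene stood at 3.54 and 3.48 FPKM in the WT duplicates, against 8.79 and 9.08 FPKM in the Cnot4-null duplicates. The values carry no read counts, so the number of reads behind each library is not known from them, and the read totals that the authors give elsewhere were not used here. The most common ratio between low values gives a step size for each library, whose inverse relative to WT PD replicate 1 was 1.09 for WT PD replicate 2 and 0.825 and 0.679 for the Cnot4-null PD libraries. This is a property of the listed values and not a count of sequenced reads. Duplicates also differed in how close they were. Between the WT duplicates the median absolute log2 difference of the tested genes was 0.129, and 218 genes (1.42%) were more than 1 apart. Between the Cnot4-null duplicates it was 0.580, and 3778 genes (24.6%) were more than 1 apart, 2103 of them higher in replicate 1 and 1675 in replicate 2. A single rise or fall in Cnot4-null therefore carries a larger error than the WT values would give.

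Many genes differed between the genotypes, most of them higher in Cnot4-null in the values as deposited, and the balance of rises and falls turned with the scaling. As deposited, limma called 6678 genes higher (43.5% of those tested) and 1871 lower (12.2%) in Cnot4-null PD, 8549 in all, so that 78.1% of the calls were rises. After quantile normalization, which gives each library the same distribution, 3076 genes were called higher (20.04%) and 3985 lower (25.96%), or 43.6% rises. With each library rescaled to the same median over the tested genes, 3908 were higher and 6181 lower, or 38.7% rises. Under all 3 of these scalings, 2475 genes were called higher (16.1%) and 1798 lower (11.7%). Because the median tested gene stood lower in WT PD, the same median lowers Cnot4-null values relative to WT. For falls, the call under the 3 scalings therefore adds only quantile normalization as a check. The median tested gene changed by 0.72 on the log2 scale as deposited, by -0.05 after quantile normalization and by -0.21 at the same median. Changes relative to the median gene are therefore given with that shift of 0.72 taken off. Among protein-coding genes, 6249 were called higher and 1690 lower as deposited, and 2348 and 1621 under the 3 scalings. Calls depended on each library. Without WT PD replicate 1 there were 3970 genes higher and 506 lower, and without WT PD replicate 2 there were 3752 and 428. Without Cnot4-null PD replicate 1 the counts were 7086 and 2910, and without Cnot4-null PD replicate 2 they were 6306 and 1132. With 2 libraries on each side, the smallest p of an exact test is 0.333, so single genes rest on the spread that limma pools across genes.

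Large rises were more numerous than large falls as deposited and after quantile normalization. Sizes were not counted with each library at the same median. As deposited, 2795 genes were called with a rise of at least 2 on the log2 scale, which is 4-fold, and 194 with a fall of that size. At 3 on the log2 scale, which is 8-fold, 1028 rises and 25 falls were called, and at 5 on that scale, 89 and 2. Quantile normalization left 1229 rises and 605 falls of at least 2, and 463 and 77 of at least 3. How a gene passed the filter mattered. Genes above 1 FPKM in a library of both genotypes numbered 10247, with 3206 called higher (31.3%) and 1758 lower (17.2%) as deposited, and 1062 and 1685 under the 3 scalings. Among these 10247 genes, 1266 rises and 175 falls of at least 2 were called as deposited, and 521 and 19 of at least 3. After quantile normalization it was 657 and 522, and 262 and 61, while at 1 on the log2 scale falls were more numerous there, 2804 against 1348 rises. A further 4874 genes passed through Cnot4-null libraries alone and 228 through WT libraries alone. Such genes can differ in 1 direction only, so their calls (3472 higher and 113 lower) support no direction.

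Genes with high levels in WT tended to be lower in Cnot4-null, and genes with low levels higher. When the tested genes were split into 4 equal groups by their mean WT PD FPKM, the median log2 change was 1.48 in the lowest group, 1.26 and 0.30 in the next ones, and -0.62 in the highest. In the highest group 9.59% were called higher and 36.2% lower. After quantile normalization these were 11% and 42.1%, and in the lowest group 29.4% and 0.130%. The groups use the WT values from which the change is measured, which alone gives part of this slope.

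**Figure D1:**
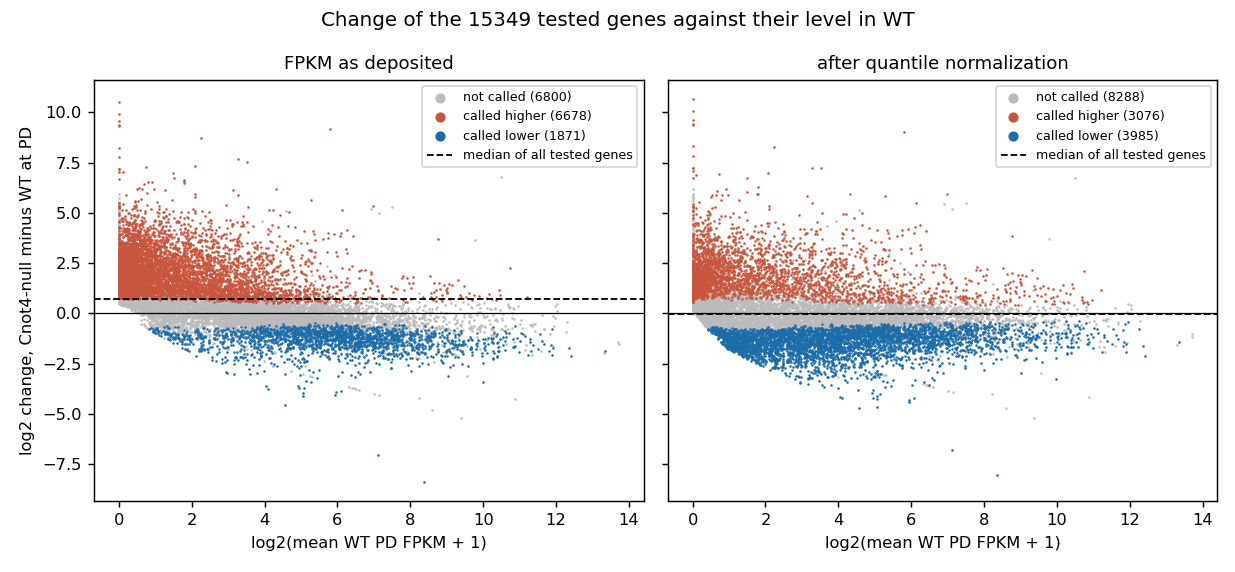
Each point is a tested gene, with its level in WT PD on the horizontal axis (log2 of mean FPKM + 1, 2 libraries) and its log2 change from WT to Cnot4-null PD on the vertical axis, as deposited on the left and after quantile normalization on the right. Red points were called higher and blue points lower by limma, and the dashed line is the median gene, at 0.72 on the left and -0.05 on the right, so that rises outnumber falls on the left (6678 against 1871) and falls outnumber rises on the right (3985 against 3076).

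The largest rises exceeded 6 on the log2 scale, and 2 of the 10 genes, Insl3 and Hsd3b1, are Leydig cell markers. Insl3, which encodes a peptide hormone of Leydig cells, was listed at 104 and 4.90 FPKM in the WT duplicates, against 9669 and 21610 FPKM in the Cnot4-null duplicates. It was the coding gene with the highest mean in Cnot4-null PD, and its log2 change was 9.18 (standard error 1.18, limma adjusted p = 0.000877), or 8.46 relative to the median gene and 9.02 after quantile normalization. Its 4 LZ values lay between 8.25 and 16.9 FPKM. In bulk RNA, a different number of cells of a type and a different amount of RNA per cell cannot be told apart. Hsd3b1, an enzyme of steroid synthesis, was listed at 0.0777 and 0.0712 FPKM in the WT duplicates, against 89.7 and 216 in the Cnot4-null duplicates (log2 change 7.03, adjusted p = 0.000105). Lcn2 encodes lipocalin 2, a secreted protein that binds siderophores, and was at 7.10 and 0.362 FPKM against 973 and 1958 (8.70, adjusted p = 0.000254). The WT duplicates of Insl3 and Lcn2 lay far apart on a relative scale, but all were far below the Cnot4-null values.

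The other rises of this size were in genes of several functions. Ptgds, which encodes a prostaglandin D synthase, went from 16.0 and 1.37 FPKM in WT PD to 866 and 1920 in Cnot4-null PD (log2 change 7.67). Fabp3, a fatty acid binding protein, was at 18.2 and 2.69 FPKM in the WT duplicates, against 1219 and 2033 in the Cnot4-null duplicates (7.55). Apoe, which encodes apolipoprotein E, was at 4.28 and 0.672 FPKM against 182 and 462 (6.61). In each case the lower Cnot4-null value was more than 10 times the higher WT value. Akr1cl, an aldo-keto reductase gene, rose by 7.31, Agt, which encodes angiotensinogen, by 7.28, and Fxyd1, a regulator of the sodium pump, by 6.99, with Cnot4-null values from 154 to 586 FPKM. Aldh1a1, an enzyme of retinoic acid synthesis, is taken up below. All 10 were called under the 3 scalings, and in each of the 10 the genotype effect was larger at PD than at LZ by limma's interaction term.

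The largest falls were smaller, were found in genes that were listed at under 4 FPKM at LZ except for Moap1 and Neil3, and included several symbols named only by their clone. Olfr1188, an olfactory receptor gene, was at 27.2 and 37.3 FPKM in the WT duplicates, against 1.02 and 0.742 in the Cnot4-null duplicates (log2 change -4.13, standard error 0.34, limma adjusted p = 0.000201). Epyc, which encodes the proteoglycan epiphycan, was at 57.9 and 64.0 FPKM against 5.72 and 1.49 (-3.92). Gm10754 lies within the same stretch of chromosome 10, from 97144736 to 97145050 within 97106702 to 97145088, and fell with it from 32.7 and 32.6 FPKM to 4.34 and 0.265 (-3.69). The values of these overlapping genes cannot be told apart with certainty. Moap1, a modulator of apoptosis that binds BAX, was at 68.1 and 65.5 FPKM in the WT duplicates, against 0.993 and 9.79 in the Cnot4-null duplicates (-3.87). Neil3, a DNA glycosylase of base excision repair, was at 27 and 33.3 FPKM against 2.88 and 2.49 (-3.07, standard error 0.33, adjusted p = 0.000453), with Cnot4-null duplicates as close as those of WT. Gipc2, a PDZ domain protein gene, was at 70.2 and 58.2 FPKM against 13.0 and 3.03 (-3.11).

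Asb4, which encodes a substrate adaptor of a ubiquitin ligase, also belonged to these falls (-4.04), but its adjusted p was 0.0506 without WT PD replicate 1. The symbols 9530002B09Rik, 4933434I20Rik and 4933402N22Rik completed the list, with WT PD values between 26.8 and 89.6 FPKM and Cnot4-null PD values between 0.304 and 19.0 FPKM. The genotype effect was more negative at PD than at LZ for 7 of the 10 falls by the interaction term, and none of these 20 genes was called at LZ by limma.

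**Figure D2:**
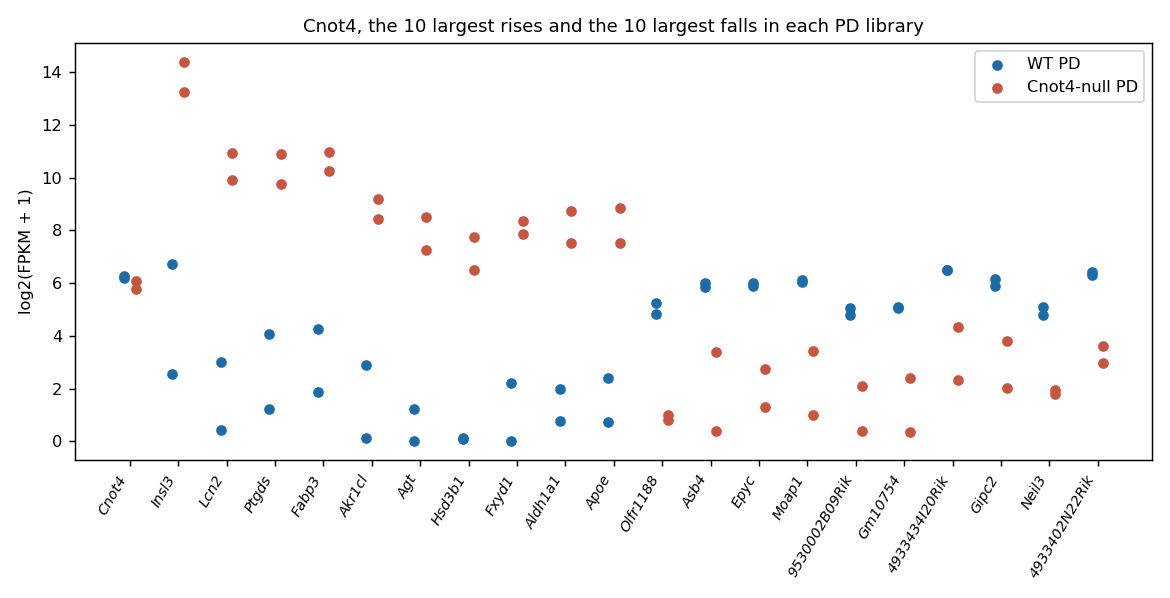
The vertical axis gives log2(FPKM + 1) in each PD library for Cnot4 and, by rule, the 10 protein-coding genes with the largest rise and the 10 with the largest fall that were called as deposited and after quantile normalization. Each point is 1 library (WT blue, Cnot4-null red, 2 each), and the genotypes do not overlap in any of these genes, which for the rises and falls was a condition of the choice.

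The most abundant transcripts of WT PD cells belong to sperm development, and their levels in Cnot4-null varied between the duplicates. Fabp9, a fatty acid binding protein of the acrosome, was at 14290 and 12460 FPKM in the WT duplicates, against 9193 and 2640 in the Cnot4-null duplicates, which was not called (log2 change -1.44, limma adjusted p = 0.0979). Meig1, a gene needed for the sperm flagellum, stood at 13090 and 13950 FPKM against 7422 and 3016 (-1.51, adjusted p = 0.0698). Ldhc, the testis form of lactate dehydrogenase, was at 10590 and 9725 FPKM against 4585 and 1474 (-1.97, adjusted p = 0.0531). For all 3 genes the Cnot4-null values were below the WT values, and replicate 2 was the lower one. Without Cnot4-null PD replicate 1, Fabp9 and Ldhc were called (adjusted p = 0.0333 and 0.0464). With each library at the same median Fabp9, Meig1 and Ldhc were all called (-2.79, -2.86 and -3.31), and at the same sum Meig1 and Ldhc (adjusted p = 0.0493 and 0.0383). Ldhc was also called with a replicate block (0.0423) and with coding genes only (0.0421).

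Among called coding genes with the highest means, Cox8c, a testis subunit of cytochrome c oxidase, fell from 10350 and 10520 FPKM to 4586 and 1768 (-1.87, limma adjusted p = 0.00790). Spink2, a protease inhibitor of the acrosome, fell from 5417 and 5463 FPKM to 2185 and 699 (-2.14), and Mt1, a metallothionein, from 3686 and 3862 FPKM to 2365 and 2083 (-0.77). The adjusted p without WT PD replicate 1 or 2 was 0.0503 and 0.0538 for Cox8c, 0.0923 and 0.0938 for Spink2, and 0.0879 and 0.109 for Mt1, and for Spink2 it was 0.139 without Cnot4-null PD replicate 2. Cox7b2, another testis subunit of that oxidase, fell from 3663 and 4027 FPKM to 1928 and 706 (-1.72), with adjusted p of 0.0656 and 0.0798 without WT PD replicate 1 or 2. Cox8c, Spink2, Mt1 and Cox7b2 were not called with only the PD libraries (adjusted p = 0.122, 0.0743, 0.297 and 0.0987), nor, except for Cox8c, without a filter (0.0869, 0.116 and 0.0623).

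The highest rises included Insl3 and Prm1, which are described with their cell types. There were also 2 symbols, Gm20594 and Lars2, whose reads can come from mitochondrial ribosomal RNA, and their values are uncertain. Gm20594 was at 1374 and 2065 FPKM in the WT duplicates, against 3838 and 16920 in the Cnot4-null duplicates, and Lars2 at 234 and 629 FPKM against 2277 and 10830. Without a filter and with only the PD libraries, the call of Gm20594 was lost (limma adjusted p = 0.199 and 0.107). Gm20594 was not called at the same median (0.91, adjusted p = 0.247), nor without WT PD replicate 1 (adjusted p = 0.130), WT PD replicate 2 (0.0730) or Cnot4-null PD replicate 2 (0.0658). Lars2 was not called without WT PD replicate 1 (adjusted p = 0.0545).

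Markers of somatic testis cells were higher in Cnot4-null PD than in WT PD without overlap of the summed levels. Of 12 Leydig cell markers tested, 11 were called higher and 0 lower, and 10 were higher under the 3 scalings, where 16.1% of all genes were. Their summed level was 367 and 252 FPKM in the WT duplicates, against 10350 and 22530 FPKM in the Cnot4-null duplicates. Insl3 was the most abundant and held 9669 and 21610 FPKM of the Cnot4-null sums. Cyp17a1, an enzyme of androgen synthesis, was at 4.93 and 0 FPKM in the WT duplicates, against 168 and 279 in the Cnot4-null duplicates (log2 change 6.48). Cyp11a1, which makes pregnenolone from cholesterol, was at 2.28 and 0 FPKM against 67.3 and 77.5 (5.34), and Hsd3b6 at 0.882 and 0 against 56.1 and 78.2 (5.62). Fdx1, an electron carrier of steroid synthesis that other cells use as well, was at 245 and 238 FPKM against 238 and 166 and was not called (-0.28, limma adjusted p = 0.328). In WT PD replicate 2, 5 of the 12 markers were listed at 0, and in the Cnot4-null libraries none was. The median log2 change of the list was 3.35, against 0.72 for all genes, and 2.76 after quantile normalization. Among these 12 markers, 5 passed the filter through Cnot4-null alone, and of the other 7, 6 were called higher.

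The same held for contractile and matrix genes. All 9 markers of peritubular myoid cells were called higher, 8 under the 3 scalings, and their sum was 15.6 and 11.8 FPKM in WT PD against 209 and 682 FPKM in Cnot4-null PD. Myl9, a myosin light chain and their most abundant gene in Cnot4-null PD, was at 0.437 and 1.07 FPKM against 85.4 and 294 (log2 change 6.53). Acta2, smooth muscle actin, was at 1.14 and 0.968 FPKM against 42.8 and 209 (5.55). Of the 9, 6 and 5 were called without WT PD replicate 1 or 2. Of 18 genes of the extracellular matrix tested, 18 were called higher and 16 under the 3 scalings, with sums of 32.9 and 13.3 FPKM against 580 and 1183. Dcn, which encodes the proteoglycan decorin, was at 15.4 and 0.148 FPKM in the WT duplicates, against 210 and 455 in the Cnot4-null duplicates (6.16), and Igfbp7 at 3.22 and 3.33 FPKM against 106 and 199 (5.10). Filter passage through Cnot4-null alone accounted for 12 of the 18 matrix genes and 4 of the 9 myoid genes, and the other 6 and 5 genes, which could go either way, were all called higher.

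Immune, endothelial and Sertoli cell markers moved less evenly. Of 16 macrophage markers tested, 12 were called higher and 6 under the 3 scalings, with sums of 30.5 and 21.9 FPKM in the WT duplicates, against 492 and 549 FPKM in the Cnot4-null duplicates. Aif1 was the most abundant, at 22.0 and 13.1 FPKM against 352 and 128 (log2 change 3.56), and H2-Aa, a class II histocompatibility gene, was at 0.148 and 0 FPKM against 36.8 and 57.9 (5.46). The filter was passed through Cnot4-null alone by 11 of the 16, which include 10 of the 12 calls and 5 of the 6, and of the 5 above 1 FPKM in both genotypes 2 were called. The count of 12 fell to 3 without WT PD replicate 1, to 2 without WT PD replicate 2 and to 4 without Cnot4-null PD replicate 2. Of 10 endothelial markers, 5 passed the filter, all of them through Cnot4-null alone, and 3 were called, with Egfl7 at 8.24 and 11.4 FPKM in Cnot4-null PD and listed at 0 in both WT PD libraries. Only 1 endothelial marker was called without WT PD replicate 1 or 2. Of 15 Sertoli cell markers tested, 10 were called higher and 1 lower as deposited, but 2 and 1 under the 3 scalings, which is near the share of all genes. Clu, a secreted chaperone, was at 8.06 and 15.3 FPKM in the WT duplicates, against 94.6 and 196 FPKM in the Cnot4-null duplicates (3.50). It was the most abundant gene of the list in the Cnot4-null duplicates. Dhh, a ligand of the hedgehog pathway, was the gene that fell (-1.16), but it passed the filter through WT alone and could be called in 1 direction only. The defining Sertoli marker Fshr was listed at 0 in all 4 PD libraries. The filter was passed through Cnot4-null alone by 7 of the 15. Sertoli sums were 38.5 and 95.6 FPKM against 173 and 293, and 4 and 7 markers were called higher without WT PD replicate 1 or 2 and 6 without Cnot4-null PD replicate 2. Of 5 erythroid markers none passed the filter, and 4 or 5 of them were listed at 0 in each PD library. The part of these cell types in the other changes was not tested.

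Most spermatogonial and round spermatid markers were called higher in Cnot4-null, falls outnumbered rises among markers of the PD stage itself, and those of the LZ stage went both ways. Of 17 spermatogonial markers, 14 were called higher and 12 under the 3 scalings, but 11 passed the filter through Cnot4-null alone and supply 10 and 9 of these calls. Among the 6 that could go either way, 4 were called higher and 1 lower. Uchl1, a ubiquitin hydrolase, was at 10.9 and 6.22 FPKM in the WT duplicates, against 202 and 232 in the Cnot4-null duplicates (log2 change 4.55, limma adjusted p = 0.000101). Dmrt1, a transcription factor of spermatogonia, was at 1.88 and 1.03 FPKM against 48.1 and 95.7 (4.83), and Sohlh1, a factor of spermatogonial differentiation, at 1.42 and 0.542 against 41.3 and 51.3 (4.61). These genes were high at LZ too, with Uchl1 at 250 to 422 FPKM and Dmrt1 at 120 to 174 FPKM in the 4 LZ libraries. Dmrtb1, a factor of the switch from mitosis to meiosis, fell from 410 and 410 FPKM to 296 and 148 (-0.97), but was not called after quantile normalization. Because Dmrtb1 is abundant, the list's sum moved little, from 482 and 496 FPKM in WT PD to 731 and 692 FPKM in Cnot4-null PD.

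Of 15 genes of the leptotene and zygotene stage tested, 7 were called higher and 4 lower, and 5 and 4 under the 3 scalings, and the sums were 1346 and 1384 FPKM in the WT duplicates, against 1296 and 921 FPKM in the Cnot4-null duplicates. Tex15, needed for the repair of meiotic breaks, rose from 1.78 and 1.22 FPKM to 25.7 and 40.4 (log2 change 3.74), and D6Mm5e, the older symbol of M1ap, from 0.901 and 1.02 to 19.3 and 17.1 (3.29). Their LZ values were higher still, from 79.7 to 102 FPKM for Tex15. Sycp3, a protein of the chromosome axis and the most abundant gene of the list, fell from 785 and 799 FPKM to 473 and 260 (-1.17, limma adjusted p = 0.0384), and Spo11, the enzyme that makes meiotic breaks, from 134 and 147 FPKM to 56.6 and 35.2 (-1.63). None of the 4 falls was called without WT PD replicate 1, without WT PD replicate 2 or without Cnot4-null PD replicate 2. The median of the list was 0.70, near that of all genes, and -0.13 with each library at the same median.

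Of 17 markers of the pachytene and diplotene stage, 7 were called lower and 1 higher, and 5 and 1 under the 3 scalings. Their summed level was 14690 and 13800 FPKM in the WT duplicates, against 7289 and 2925 FPKM in the Cnot4-null duplicates, or 1.73 and 1.63% of all FPKM against 0.816 and 0.432%. In 15 of the 17, the Cnot4-null values were lower than the WT values without overlap, and the median log2 change was -1.06, or -1.77 relative to the median gene. Adam2, a sperm surface protein needed for fertilization, was at 375 and 397 FPKM in the WT duplicates, against 160 and 115 in the Cnot4-null duplicates (-1.50). Tbpl1, a relative of the TATA-binding protein needed for spermiogenesis, was at 334 and 335 FPKM against 127 and 58.0 (-1.95), and Pou5f2 at 174 and 161 against 52.6 and 21.7 (-2.27). Acrv1, an acrosomal protein gene of the list, rose from 16.5 and 15.0 FPKM to 139 and 101 (2.83). Without WT PD replicate 1, WT PD replicate 2 or Cnot4-null PD replicate 2, 4 markers were called lower in each case, and without Cnot4-null PD replicate 1 it was 12. The libraries labelled PD therefore held the markers of their stage in both genotypes, with a lower sum in Cnot4-null.

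Of 18 round spermatid markers, 15 were called higher and 1 lower, and 12 and 0 under the 3 scalings, with a median log2 change of 3.11 and of 2.66 after quantile normalization. Protamines and transition proteins replace histones on sperm DNA. Prm1, the most abundant of the list in Cnot4-null PD, was at 176 and 74.8 FPKM in the WT duplicates, against 7592 and 2949 in the Cnot4-null duplicates (5.35, limma adjusted p = 0.00344). Prm2 was at 60.3 and 77.3 FPKM against 3475 and 1733 (5.15), and Tnp2 at 46.3 and 28.8 against 2755 and 1286 (5.65). In the LZ libraries Prm1 varied from 240 to 1991 FPKM, the highest in Cnot4-null LZ replicate 1, so its level outside PD was neither low nor even. Odf1, a protein of the outer dense fibers, rose from 7.82 and 12.9 FPKM to 184 and 364 (4.55). Acrbp, a binding partner of proacrosin, fell from 488 and 448 FPKM to 318 and 153 (-1.08), but was not called after quantile normalization. The sums of the list were 1118 and 916 FPKM against 17090 and 7977 FPKM, 1.91 and 1.18% of all FPKM in Cnot4-null PD. Only 1 of these 18 passed the filter through Cnot4-null alone.

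**Figure D3:**
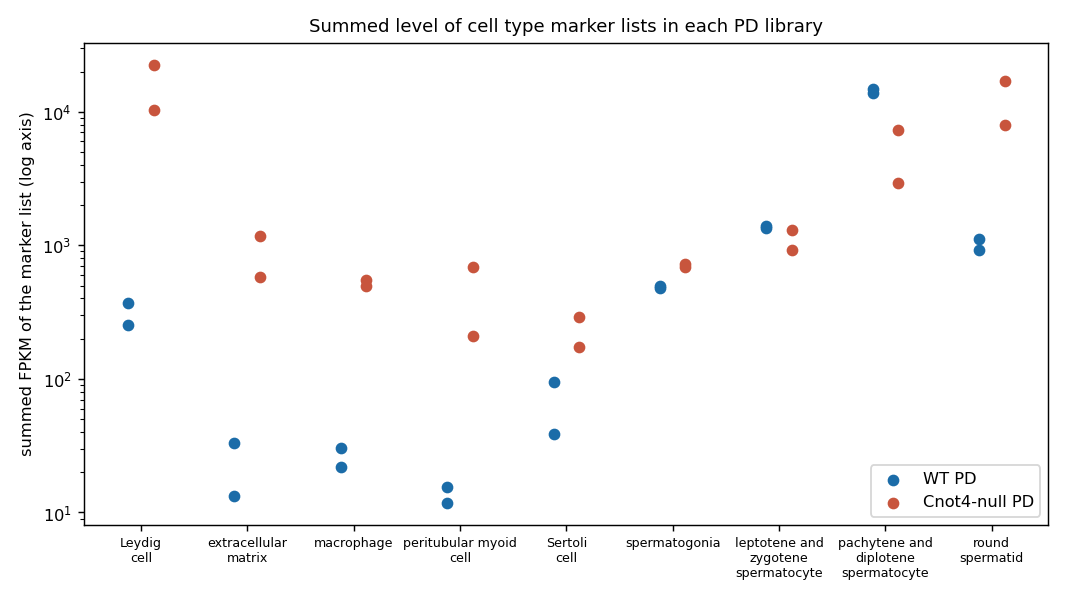
The vertical axis (log scale) gives the summed FPKM of each marker list in each PD library, with WT in blue and Cnot4-null in red. Leydig cell and round spermatid markers reached 10350 and 22530, and 17090 and 7977 FPKM, in Cnot4-null PD, while markers of the PD stage stood at 7289 and 2925 against 14690 and 13800 FPKM in WT PD.

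Genes of the X chromosome, which is silenced in WT pachytene cells, were higher in Cnot4-null almost throughout. Of 847 coding genes of the X chromosome in the values, 553 were tested. As deposited, 461 of them (83.4%) were called higher and 2 lower, and 287 (51.9%) and 2 under the 3 scalings. On all autosomes, 42.8% of 13439 coding genes were called higher and 12.5% lower, and from 10% to 17.9% of a single autosome's genes were higher under the 3 scalings. The median log2 change was 2.14 for X-linked genes and 0.66 for autosomal genes, and after quantile normalization 1.13 and -0.092. Many X-linked genes, 407 of the 553, passed the filter through Cnot4-null alone and could be called in 1 direction only. Of the 144 above 1 FPKM in both genotypes, 126 were called higher and 0 lower, and 98 higher under the 3 scalings. Without each of the 4 PD libraries in turn, between 338 and 461 X-linked genes were called higher.

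The level of X-linked RNA in Cnot4-null PD lay between those of WT PD and of LZ. The summed FPKM of X-linked genes was 679 and 577 in WT PD, 11140 and 10790 in Cnot4-null PD, and between 15560 and 19860 in the 4 LZ libraries. As a share of all FPKM it was 0.0797 and 0.0681% in WT PD, 1.25 and 1.60% in Cnot4-null PD and 2.13 to 2.42% at LZ. Genes of the X chromosome above 1 FPKM numbered 127 and 112 in the WT duplicates, against 487 and 507 in the Cnot4-null duplicates. The most abundant included ribosomal protein genes. Rpl10 was at 25.4 and 15.5 FPKM in the WT duplicates, against 511 and 736 in the Cnot4-null duplicates (log2 change 4.88, standard error 0.30, limma adjusted p = 9.2e-05). Rpl36a was at 23.4 and 11.9 FPKM against 612 and 627 (5.13), and Tmsb4x, which encodes the actin-binding thymosin beta 4, at 19.0 and 14.1 against 565 and 672 (5.15). Pin4, a prolyl isomerase gene, went from 14.2 and 5.19 FPKM to 341 and 234 (4.87). Tmsb4x had only 30.6 to 99.1 FPKM in the LZ libraries, so it was higher in Cnot4-null PD than at LZ, unlike Rpl10 at 746 to 1019 FPKM. The 2 X-linked genes called lower were Gyk, a glycerol kinase, with 2.88 and 2.52 FPKM against 0.788 and 0.640 (-1.11), and Ssx9 with 1.28 and 0.880 FPKM against 0.388 and 0 (-0.81). They were named after their values were seen, and both passed the filter through WT alone, so that they could be called in 1 direction only.

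The 8 tested genes of the Y chromosome were all called higher as deposited, and 4 under the 3 scalings, but 6 of them passed the filter through Cnot4-null alone and only 2 could go either way. Ube1y1, a ubiquitin-activating enzyme, was at 1.02 and 1.12 FPKM in the WT duplicates, against 20.6 and 24.8 in the Cnot4-null duplicates (log2 change 3.51), and Eif2s3y, a subunit of translation initiation factor eIF2, at 2.46 and 3.38 against 34.1 and 29.5 (3.07). Their LZ values were higher, from 83.0 to 123 FPKM for Eif2s3y. Of the 8, 4 were called without WT PD replicate 1 or 2. Reads shared between Y-linked genes and their X-linked copies make single values uncertain.

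**Figure D4:**
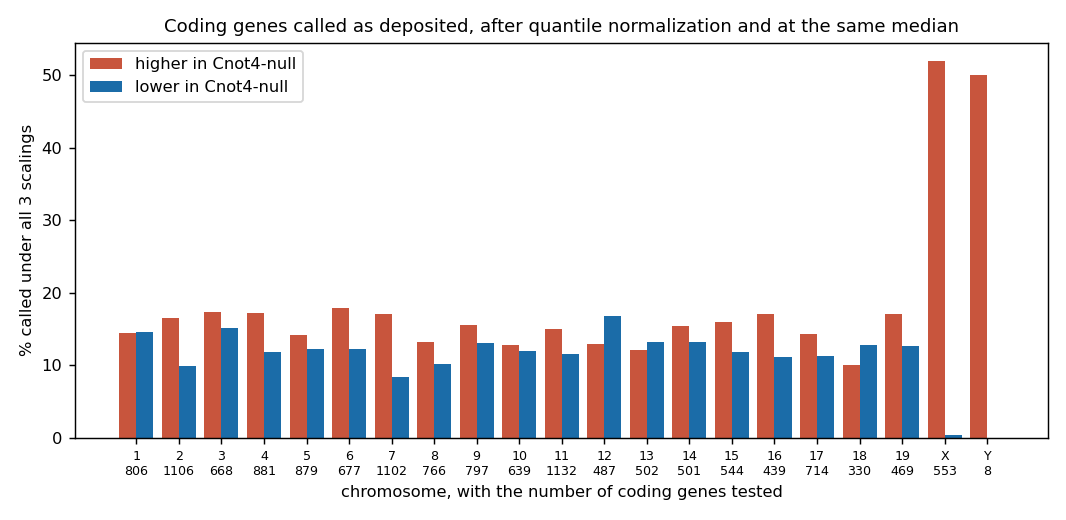
Bars give the percentage of tested coding genes of each chromosome called higher (red) or lower (blue) in Cnot4-null PD under all 3 scalings, as deposited, after quantile normalization and with each library at the same median, with the number tested under each name. The X chromosome reached 51.9% higher, while the autosomes lay between 10% and 17.9% higher and between 8.35 and 16.8% lower.

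Genes of meiotic chromosome structure and recombination were split rather than moved as a group. Of 9 genes of the synaptonemal complex, 3 were called higher and 3 lower, and 2 and 2 under the 3 scalings. The median of the list was 0.19 as deposited, 0.56 after quantile normalization and -1.16 at the same median, so it has no direction of its own. Syce1, a protein of the central element, fell from 604 and 601 FPKM to 290 and 145 (-1.55, limma adjusted p = 0.00690), whereas Syce2, of the same element, rose from 43.1 and 32.1 FPKM to 195 and 136 (2.1). Fkbp6 rose from 33.4 and 28.2 FPKM to 133 and 140 (2.12). Sycp1, the transverse filament, was at 113 and 112 FPKM against 150 and 127 and was called after quantile normalization (0.56) but not as deposited (0.29). The falls of this list were 1 instead of 3 without WT PD replicate 1, WT PD replicate 2 or Cnot4-null PD replicate 2. Of 7 genes of meiotic cohesin and the axis, 2 rose and 2 fell. Stag3, a meiotic cohesin subunit, fell from 79.1 and 80.8 FPKM to 48.0 and 24.5 (-1.20), and Smc3, a subunit of all cohesins, rose from 4.71 and 4.06 to 29.3 and 44.2 (2.78). No fall of this list was called without WT PD replicate 1 or 2.

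In the repair pathways, too, single genes moved in opposite directions, and the medians of the lists turned with the scaling. Of 7 genes of break formation, 4 were called higher and 1 lower, but 1 and 1 under the 3 scalings, with a median log2 change of 1.20 as deposited, -0.01 after quantile normalization and 0.66 at the same median. Of these 4 rises, 3 were in genes that passed the filter through Cnot4-null alone, and among the 4 genes above 1 FPKM in both genotypes 1 was higher and 1 lower. Of 13 strand exchange and RPA genes, 5 were higher and 2 lower (0.39, -0.06 and -0.91 in the same order), and 2 and 2 under the 3 scalings. Rpa1, a subunit of the factor that coats single-stranded DNA, fell from 110 and 109 FPKM to 63.2 and 32.6 (-1.25), and Hsf2bp, which helps to load recombinases, from 52.0 and 47.9 to 33.6 and 15.5 (-1.09). Of 15 genes of crossover and mismatch repair, 5 were higher and 3 lower (0.23, -0.60 and -0.80), and 2 and 2 under the 3 scalings. Here 3 of the 5 rises, and both under the 3 scalings, passed through Cnot4-null alone, and among the other 12 genes 2 were higher and 3 lower, and 0 and 2. Cntd1, a cyclin-like factor of crossover sites, fell from 58.2 and 58.1 FPKM to 16.7 and 15.6 (-1.79, standard error 0.21, limma adjusted p = 0.000626), with both pairs of duplicates close together. Mlh3, which acts in the cutting of crossover intermediates, fell from 11.8 and 12.3 FPKM to 8.46 and 4.70 (-0.83).

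Genes of end joining and damage signalling also went both ways. Of 10 end joining genes, 5 were called higher and 2 lower (medians 0.69, -0.07 and -0.55), and 2 and 2 under the 3 scalings. Dclre1c, which encodes the nuclease Artemis, rose from 19.4 and 20.2 FPKM to 106 and 105 (log2 change 2.36), and Lig4, the ligase of this pathway, fell from 16.1 and 14.5 to 8.56 and 5.80 (-1.01). Of 15 genes of DNA damage signalling, 7 were higher and 2 lower (0.52, -0.46 and -0.57), and 2 and 2 under the 3 scalings, where 43.5 and 12.2%, and 16.1 and 11.7%, of all genes were. After quantile normalization 3 were higher and 7 lower. Atr, a kinase of damage signalling that acts in the silencing of the sex chromosomes, fell from 101 and 100 FPKM to 46.8 and 29.2 (-1.42, limma adjusted p = 0.00716). Mdc1, an adaptor that spreads this signal over the sex chromosomes, fell from 31.7 and 34.2 to 20.1 and 17.95 (-0.76). Rad9, a clamp subunit, rose from 5.01 and 4.20 FPKM to 31.4 and 27.2 (2.44), and Scml2, an X-linked Polycomb protein of germ cells, from 1.46 and 0.834 to 18.9 and 31.7 (3.58). H2afx, the histone variant that is phosphorylated in these pathways, was at 36.6 and 38.8 FPKM against 32.9 and 22.7 and was not called as deposited (-0.45, adjusted p = 0.155). Leaving out a WT PD library lowered most of these counts, but the 7 rises of damage signalling were 7 without either of them. Higher calls were 3 and 3 for end joining, 3 and 3 for crossover genes, 3 and 2 for strand exchange and 2 and 1 for break formation without WT PD replicate 1 and 2, and the falls were at most 1 in each list.

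Genes of cell division went both ways. Among 21 cyclins and kinases of the metaphase, 6 were called higher and 6 lower, and 2 and 4 under the 3 scalings. Of these rises 2, the same that were called under the 3 scalings, passed the filter through Cnot4-null alone, Ccnd2 and Cdc25b, and among the 18 genes above 1 FPKM in both genotypes 4 were higher and 6 lower, and 0 and 4. Cyclins of mitotic cells were among the rises: Ccnd2 went from 0.644 and 0.169 FPKM to 12.5 and 16.5 (log2 change 3.47), and Ccna2 from 14.4 and 15.5 to 40.4 and 57.6 (1.63). Aurka, a kinase of the spindle, fell from 196 and 178 FPKM to 90.1 and 38.6 (-1.65), and Aurkc, its meiotic relative, from 109 and 88.2 to 53.3 and 21.7 (-1.50). Ccna1, the meiotic cyclin A, was at 148 and 152 FPKM against 83.0 and 28.2 (-1.61, limma adjusted p = 0.0556). The count of falls was 0 without WT PD replicate 1 and 1 without WT PD replicate 2. Of 10 genes of the replicative MCM helicase with Pcna, 7 rose and 1 fell, and 5 and 1 under the 3 scalings. Mcm2 and Mcm4 passed through Cnot4-null alone and are among both counts of rises, and of the other 8 genes 5 rose and 1 fell, and 3 and 1. Mcm2 rose from 0.526 and 0.815 FPKM to 19.5 and 19.3 (3.62, standard error 0.21, adjusted p = 9.2e-05), Mcm3 from 1.72 and 1.93 to 22.4 and 18.9 (2.94) and Mcm5 from 1.04 and 1.02 to 12.1 and 16.7 (2.91). At LZ these genes lay between 43.0 and 75.4 FPKM. Pcna, the sliding clamp, fell from 367 and 378 FPKM to 218 and 126 (-1.16), but was not called without WT PD replicate 1 or 2.

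Among genes of the piRNA pathway and regulators that switch on the later program, falls outnumbered rises. Of 17 piRNA genes tested, 9 were called lower and 2 higher, and 8 and 1 under the 3 scalings, where 11.7% of all genes were lower. The median was -0.71, or -1.43 relative to the median gene and -0.63 after quantile normalization, and the sums were 3582 and 3762 FPKM in the WT duplicates, against 2519 and 1467 FPKM in the Cnot4-null duplicates. Mael, a protein of germ granules, fell from 1278 and 1393 FPKM to 611 and 374 (-1.48, limma adjusted p = 0.00501). Ddx4, the germ cell RNA helicase, fell from 282 and 311 FPKM to 165 and 132 (-1.0), and Tdrd6, a Tudor protein of the chromatoid body, from 112 and 114 to 57.4 and 38.2 (-1.25). Mov10l1, a helicase that starts piRNA processing, rose from 16.9 and 15.8 to 43.0 and 48.6 (1.43). Gtsf1, with 1195 and 1244 FPKM against 1122 and 492, and Piwil1, with 229 and 215 against 162 and 88.6, were not called. The number lower was 3 and 2 without WT PD replicate 1 or 2, and without Cnot4-null PD replicate 2 it was 5.

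Of 14 transcription regulators of the pachytene and spermatid program, 7 were called lower and 2 higher, and 7 and 1 under the 3 scalings. Tcfl5, a helix-loop-helix factor, fell from 270 and 294 FPKM to 123 and 64.4 (log2 change -1.65). Brdt, a bromodomain protein of the testis, fell from 191 and 176 to 103 and 60.1 (-1.21), and Crem, a regulator of spermatid genes that binds cAMP response elements, from 158 and 157 to 98.7 and 62.8 (-0.99). Taf7l, an X-linked TAF7 paralog, rose from 4.88 and 4.34 FPKM to 95.2 and 110 (4.20, standard error 0.21, limma adjusted p = 7.8e-05). The median of the list was -1.10 and the sums were 1669 and 1655 FPKM against 1008 and 601 FPKM. Only 2 regulators were called lower without WT PD replicate 1 or 2, and without Cnot4-null PD replicate 2 it was 3.

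Genes of the axoneme and of intraflagellar transport, which build the sperm flagellum, were lower across most of the list. Of 46 tested, 28 were called lower and 0 higher, and 26 and 0 under the 3 scalings. After quantile normalization alone 34 were lower and 0 higher, and the same median is no further check on falls. In 42 of the 46, the Cnot4-null values were lower than the WT values without overlap, and 1 gene had the opposite order. The sums were 20850 and 21220 FPKM in the WT duplicates, against 11780 and 5064 FPKM in the Cnot4-null duplicates, and the median log2 change was -1.0, or -1.72 relative to the median gene and -1.19 after quantile normalization. Rsph1, a radial spoke protein, fell from 3406 and 3091 FPKM to 1784 and 701 (-1.54, limma adjusted p = 0.0214). Spag6, a protein of the central pair, fell from 342 and 354 to 109 and 54.9 (-2.15), and Spag16, its binding partner, from 202 and 188 to 58.1 and 39.8 (-2.00). Ift74, a subunit of the transport particle, fell from 292 and 287 to 202 and 107 (-0.97). Cnot4-null replicate 2 was below replicate 1 for each of these 4 genes. Of the 46 genes, 12 were called lower with only the PD libraries and 17 with library weights. The number called rested on the duplicates: it was 4 without either WT PD library, 12 without Cnot4-null PD replicate 2 and 30 without Cnot4-null PD replicate 1.

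Genes of motile cilia are known targets of RFX factors, which bind the X-box, a pair of inverted repeats. Its core GTTGCC was searched on both strands of 300 bases at the start sites of these genes in RefSeq (GRCm38.p6), with 38 of the 46 genes matched by symbol. The core was in the window of 16 of the 38 (42.1%), against 12.7% of all 27025 genes in the table, 13.3% of the immediate early genes and 13.3% of the round spermatid genes described here. The windows of the 38 hold a median of 15 CpG, against 7 over all genes, and the part of base composition in this share was not tested. Of the genes that hold it, Spag16 and Ift140 are shown with the 120 bases before their start sites. Spag16 was chosen because it carries the core on both strands with 2 bases between the matches. There GGCAAC comes before GTTGCC, and only the core was searched, so the pair is not read as a full X-box. The stretches are Spag16 at chr1:69826850-69826969 and Ift140 at chr17:25015966-25016085, both on the plus strand, with the core and its reverse complement in capitals. A match is a description of the letters and not of a bound site.
Spag16: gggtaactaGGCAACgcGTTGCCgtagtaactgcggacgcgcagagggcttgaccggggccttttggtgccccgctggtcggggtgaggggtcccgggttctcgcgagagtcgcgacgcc
Ift140: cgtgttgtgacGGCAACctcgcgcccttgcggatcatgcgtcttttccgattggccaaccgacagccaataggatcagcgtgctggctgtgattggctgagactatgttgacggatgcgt

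Other parts of the sperm were less uniform than the axoneme. Of 22 acrosome genes, 9 were called lower and 8 higher, and 8 and 5 under the 3 scalings. Zpbp2, which binds the zona pellucida, fell from 835 and 805 FPKM to 326 and 114 (log2 change -2.08), and Dpy19l2, needed to attach the acrosome to the nucleus, from 144 and 156 to 49.9 and 31.2 (-1.90). Spaca4, a protein of the acrosomal membrane, rose from 8.86 and 9.51 FPKM to 162 and 82.2 (3.52), and Spaca3, a lysozyme-like protein, from 14.3 and 9.62 to 163 and 65.4 (3.03). The genes that rose were low in WT PD and those that fell were high there. Acrosome genes called lower were 2 and 1 without WT PD replicate 1 or 2, and without Cnot4-null PD replicate 2 it was 3, while 5 instead of 8 rises were called without either WT PD library or Cnot4-null PD replicate 1. Of 26 sperm tail genes, 12 rose and 2 fell, and 8 and 1 under the 3 scalings, with a median of 0.42 that turned to -0.88 at the same median. Smcp, a cysteine-rich protein of sperm mitochondria, rose from 47.5 and 58.2 FPKM to 771 and 921 (3.98), and Tppp2 from 1.21 and 1.38 to 64.0 and 85.6 (5.03). Catsperb, a subunit of the sperm calcium channel, fell from 81.6 and 95.4 FPKM to 23.5 and 15.2 (-2.16), whereas Ropn1l, the most abundant gene of the list, was at 2705 and 2745 against 2204 and 987 and was not called (-0.89). The tail genes showed 8 rises without WT PD replicate 2, and 8 rises and 8 falls without Cnot4-null PD replicate 1.

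Energy genes differed by isoform. Testis forms replace the somatic forms of several enzymes at the PD stage, in part because the somatic copies lie on the silenced X chromosome. Of 16 testis isoforms of glycolysis and respiration, 8 were called lower and 4 higher, and 8 and 3 under the 3 scalings, with sums of 33580 and 32940 FPKM in the WT duplicates, against 16830 and 6417 FPKM in the Cnot4-null duplicates. Cox6b2, a testis subunit of cytochrome c oxidase, fell from 3174 and 3101 FPKM to 1891 and 789 (log2 change -1.36), Cyct, testis cytochrome c, from 1179 and 1267 to 722 and 371 (-1.24), and Slc2a3, a glucose carrier, from 688 and 702 to 243 and 124 (-2.00). Gapdhs, the sperm form of glyceraldehyde-3-phosphate dehydrogenase, rose from 8.17 and 6.32 FPKM to 168 and 62.5 (3.66). The count of 8 was 1 without either WT PD library and 4 without Cnot4-null PD replicate 2. Of 17 somatic isoforms, 13 were called higher and 2 lower, and 10 and 2 under the 3 scalings, with 5 of the rises in genes that passed the filter through Cnot4-null alone. Aldoa rose from 44.0 and 41.4 FPKM to 184 and 205 (2.16) and Pkm2 from 2.53 and 2.26 to 40.9 and 66.4 (3.97). Ldha went the other way, from 998 and 1130 FPKM to 400 and 223 (-1.83), and so did Pfkp, from 42.9 and 43.1 to 20.5 and 12.7 (-1.36), though without either WT PD library only 1 of these 2 falls was called.

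The ratio of a testis form to its somatic form does not change when a library is multiplied by a factor. Pgk2 stood at 118 and 94.0 times the FPKM of X-linked Pgk1 in WT PD and at 11.7 and 3.66 times in Cnot4-null PD, and the ratio was 0.165 to 0.454 at LZ. Pdha2 over X-linked Pdha1 was 351 and 1483 in the WT duplicates, against 17.3 and 6.82 in the Cnot4-null duplicates. For autosomal pairs, Cyct over Cycs was 321 and 273 against 12.4 and 5.83, and Hspa2 over Hspa8 was 8.34 and 11.4 against 0.932 and 0.450. Hsp90aa1 over Hsp90ab1 was 27.5 and 27.1 against 5.86 and 2.48. In the first 4 of these pairs both Cnot4-null PD ratios lay between the WT PD and the LZ ratios, and for Hsp90aa1 the lower one lay within the LZ range of 1.80 to 2.82. Ldhc over Ldha was 10.6 and 8.61 against 11.5 and 6.61, and Gapdhs over Gapdh 0.886 and 0.770 against 1.88 and 0.521, so in these pairs the genotypes overlapped.

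Nuclear genes of oxidative phosphorylation had a negative median as deposited, but the balance of their calls depended on single libraries. Of 82 tested, 18 were called lower and 13 higher, and 16 and 9 under the 3 scalings. The median was -0.40 as deposited, -1.11 relative to the median gene and -0.09 after quantile normalization. Ndufv2, of complex I, fell from 638 and 659 FPKM to 308 and 165 (-1.52). The rises were led by X-linked subunits, Cox7b from 3.21 and 1.18 FPKM to 71.6 and 97.2 (4.80) and Ndufb11 from 4.34 and 0.542 to 74.8 and 76.0 (4.74). Without WT PD replicate 1 or 2 there were 11 rises each and 1 and 0 falls, without Cnot4-null PD replicate 2 there were 17 rises and 12 falls, and without Cnot4-null PD replicate 1 there were 13 and 49. With only the PD libraries there were 12 rises and 2 falls.

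Of 82 cytosolic ribosomal protein genes, 47 were called higher and 1 lower as deposited, and 64 and 1 after quantile normalization, but their median of 0.72 was that of all genes and turned to -0.60 at the same median, so only 6 were higher under the 3 scalings. They held 8.26 and 8.18% of all FPKM in WT PD, but 13.0 and 12.7% of it in Cnot4-null PD. Rps4x, the X-linked gene with the largest rise of the list, went from 5.15 and 1.40 FPKM to 158 and 288 (log2 change 5.80). The gene that fell was Rpl39l, a testis form of Rpl39, from 1242 and 1378 FPKM to 810 and 436 (-1.14), while X-linked Rpl39 rose from 13.5 and 8.02 to 330 and 605 (5.29). Rps28, the most abundant, was at 3890 and 4084 FPKM against 6319 and 4268 and was not called as deposited. It was called lower at the same median (-0.97, limma adjusted p = 0.0294) and higher at the same sum (0.51, adjusted p = 0.0166). The rises were 26 and 25, and the falls 0, without WT PD replicate 1 or 2. Ribosomal protein genes have many processed copies, so single values are uncertain.

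Of 18 heat shock protein genes, 7 were called higher and 3 lower, and 5 and 2 under the 3 scalings. As deposited this is near the shares of all genes (43.5 and 12.2%). Hspe1 and Hspd1, the mitochondrial chaperonins, rose from 35.0 and 20.6 to 626 and 478 FPKM (log2 change 4.30) and from 3.13 and 2.32 to 40.2 and 52.8 FPKM (3.67). Hspa8, the constitutive HSP70, rose from 70.6 and 53.8 to 440 and 450 FPKM (2.83), while Hspa2, the HSP70 form of spermatocytes, fell from 589 and 615 to 411 and 203 FPKM (-1.06) and was not called after quantile normalization. Falls among heat shock genes were 0 without WT PD replicate 1, WT PD replicate 2 or Cnot4-null PD replicate 2, and without Cnot4-null PD replicate 1 there were 7. Of 39 proteasome genes, 10 rose and 3 fell, and 4 and 3 under the 3 scalings, with a median of 0.15 that was -1.19 at the same median. These shares are below those of all genes, as deposited (43.5 and 12.2%) and under the 3 scalings (16.1 and 11.7%). The filter was passed through Cnot4-null alone by 2 of the 39, and these are among both counts of rises. Of the 37 genes above 1 FPKM in both genotypes, 8 rose and 3 fell, and 2 and 3 under the 3 scalings. After quantile normalization 16 of the 39 were called higher and 4 lower, so the place of this list among all genes turned with the scaling. Psma8, the subunit of the testis proteasome, fell from 312 and 294 FPKM to 102 and 52.2 (-2.04), and its somatic counterpart Psma7 rose from 33.5 and 27.9 to 254 and 178 (2.76). Psmb8 and Psmb9, subunits of the immunoproteasome, rose to 6.24 and 9.83, and to 7.22 and 7.54 FPKM, from 0 or nearly 0 in WT PD. Rises of proteasome genes were 6 without either WT PD library and 15 without Cnot4-null PD replicate 2, and falls were 7 without Cnot4-null PD replicate 1.

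Immediate early genes, which cells switch on within minutes of a stimulus, were low in WT PD and higher in Cnot4-null. Of 18 tested, 16 were called higher and 0 lower, and 16 under the 3 scalings, but 14 of the 18 passed the filter through Cnot4-null alone and supply 13 of the calls. Of the 4 that could go either way, 3 were called higher. The sums were 10.4 and 5.77 FPKM in WT PD, 249.1 and 1070 FPKM in Cnot4-null PD and 78.7 to 113 FPKM at LZ. Fos was the most abundant, listed at 1.90 and 0 FPKM in the WT duplicates, against 64.9 and 227 in the Cnot4-null duplicates (log2 change 6.17, standard error 0.68, limma adjusted p = 0.000475). Zfp36, which directs mRNAs with AU-rich elements to decay, was at 0.246 and 0.301 FPKM against 14.2 and 140 (5.18), and Junb at 0.313 and 0.215 against 11 and 116 (4.89). Dusp1, a phosphatase of MAP kinases, was at 0.516 and 0.338 FPKM against 19.4 and 86.9 (4.89). Cnot4-null replicate 2 was the higher one for these 4 genes, as it was for the Leydig cell and matrix lists. The median change was 4.05, or 3.45 after quantile normalization.

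The cAMP response element core TGACGT was searched in the same way in these genes and in the round spermatid genes. It was in the window of 4 of 15 matched immediate early genes (26.7%) and of 4 of 15 matched round spermatid genes (26.7%), against 7.64% of all genes and 10.5% of the axoneme genes. With 15 windows in each list these shares rest on few genes. The core itself holds a CpG, the windows hold a median of 25 CpG in immediate early and 6 in round spermatid genes, against 7 over all genes, and the part of base composition was not tested. Fos, the most abundant gene of its list, and Izumo1, a gamete fusion protein gene with a match on both strands, are shown with the 120 bases before their start sites. Other genes of both lists have a match closer to the start. Fos lies at chr12:85473770-85473889 and Izumo1 at chr7:45621691-45621810 of GRCm38.p6, both on the plus strand. Capitals mark the core, which in Izumo1 overlaps its own reverse complement.
Fos: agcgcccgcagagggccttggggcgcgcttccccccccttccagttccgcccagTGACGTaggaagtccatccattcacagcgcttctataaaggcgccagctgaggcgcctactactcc
Izumo1: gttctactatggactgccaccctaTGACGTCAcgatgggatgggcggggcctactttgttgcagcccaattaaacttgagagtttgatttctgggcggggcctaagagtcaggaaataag

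Of 18 apoptosis genes tested, 8 were called higher and 2 lower, and 5 and 2 under the 3 scalings, with 3 of the rises in genes that passed the filter through Cnot4-null alone. The shares as deposited are near those of all genes (43.5 and 12.2%). Bax, which opens the outer mitochondrial membrane, rose from 0.385 and 2.29 FPKM to 45.5 and 70.5 (log2 change 4.75, limma adjusted p = 0.000220), and Cycs, somatic cytochrome c, from 3.68 and 4.64 to 58.1 and 63.7 (3.59). At LZ, Bax was at 106 to 143 FPKM, so its level in Cnot4-null PD was between the stages of WT. Diablo, which releases caspases from their inhibitors, fell from 857 and 779 FPKM to 368 and 179 (-1.67), and Bad from 57.9 and 51.6 to 34.4 and 23.8 (-0.91). The sums were 996 and 918 FPKM in WT PD and 642 and 506 FPKM in the Cnot4-null libraries. Diablo held most of each sum except in Cnot4-null PD replicate 2, where it held 179 of 506 FPKM. Without Cnot4-null PD replicate 1, 12 genes were called higher.

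Subunits of CCR4-NOT went both ways. Of 11 tested, Cnot4 included, 3 were called higher and 1 lower as deposited, 0 and 4 after quantile normalization, where 26% of all genes were lower, and 0 and 1 under the 3 scalings. Cnot1, the scaffold of the complex, fell from 75.0 and 69.4 FPKM to 35.6 and 26.7 (log2 change -1.20, limma adjusted p = 0.00299). Cnot3 rose from 0.853 and 2.61 FPKM to 5.05 and 10.6 (1.70), but only in the values as deposited. Cnot7, a deadenylase subunit, was at 18.7 and 21.8 FPKM against 10.3 and 15.0 and was not called as deposited (-0.65). The median was -0.03 as deposited, -0.74 relative to the median gene and -0.22 after quantile normalization. The 3 rises were 0 without WT PD replicate 1 and 1 without WT PD replicate 2 or Cnot4-null PD replicate 2.

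Of 39 genes of mRNA decay outside this complex, 12 were called higher and 2 lower, and 6 and 2 under the 3 scalings. The share called higher was below that of all genes as deposited (43.5%) and near it under the 3 scalings (16.1%). The filter was passed through Cnot4-null alone by 3 of the 39, and these are among both counts of rises. Of the 36 genes above 1 FPKM in both genotypes, 9 were higher and 2 lower, and 3 and 2 under the 3 scalings. Over all 39 genes, the counts after quantile normalization were 9 and 4. The median was 0.34 as deposited but -0.26 after quantile normalization and -0.92 at the same median. Zfp36l1, a relative of Zfp36, rose from 0.230 and 0.211 FPKM to 19.8 and 73.8 (log2 change 5.01), and Parn, a deadenylase, from 0.854 and 1.09 to 16.9 and 14.2 (3.06, limma adjusted p = 0.000134). Exosc2, of the RNA exosome, rose from 20.9 and 21.9 FPKM to 86.0 and 82.1 (1.93), while Exosc3, of the same complex, fell from 391 and 367 to 147 and 51.9 (-2.10) and Exosc9 from 55.3 and 44.2 to 30.4 and 17.7 (-1.06). Opposite changes within the exosome were thus seen on all 3 scalings. Without WT PD replicate 2, 7 genes were called higher, and 1 lower without each of the WT PD libraries and without Cnot4-null PD replicate 2.

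Genes of retinoic acid and of glutathione conjugation held more rises than falls. So did all tested genes, with 43.5 and 12.2% as deposited and 16.1 and 11.7% under the 3 scalings. Of 16 retinoic acid genes tested, 14 were called higher and 2 lower, and 8 and 2 under the 3 scalings, with a median of 2.52 and sums of 258 and 250 FPKM in the WT duplicates, against 775 and 959 FPKM in the Cnot4-null duplicates. Through Cnot4-null alone passed 7 of the 16, all called higher. Among the other 9 there were 7 rises and 2 falls, and 5 and 2 under the 3 scalings. Crabp1, a binding protein of retinoic acid in early germ cells, rose from 4.05 and 4.15 FPKM to 161 and 135 (log2 change 4.86, standard error 0.18, limma adjusted p = 3.4e-05). Rbp4, a retinol carrier, rose from 0.882 and 1.29 to 25.4 and 48.2 (4.12), and Cyp26b1, which degrades retinoic acid, from 0.655 and 0.0522 to 20.2 and 51.9 (4.67). Aldh1a1, which makes retinoic acid and is high in somatic cells, was at 2.94 and 0.706 FPKM in the WT duplicates, against 183 and 421 in the Cnot4-null duplicates. Aldh1a2, the enzyme of the same step in germ cells, fell from 107 and 110 FPKM to 44.7 and 38.9 (-1.36), and Rdh11, a retinol dehydrogenase, from 128 and 122 to 57.2 and 22.2 (-1.78). The pathway thus held rises and falls in enzymes of the same step, on all 3 scalings. The rises were 9 without WT PD replicate 1 and 10 without WT PD replicate 2.

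Of 21 glutathione S-transferase genes tested, 15 were called higher and 3 lower, and 11 and 3 under the 3 scalings. Of these rises, 6 were in genes that passed the filter through Cnot4-null alone, and 3 of those under the 3 scalings. Among the 15 genes above 1 FPKM in both genotypes there were 9 rises and 3 falls, and 8 and 3 under the 3 scalings. Gstm1 rose from 33.4 and 4.63 FPKM to 819 and 1258 (log2 change 6.19), Mgst1, a microsomal form, from 7.45 and 1.43 to 82.1 and 136 (4.56), and Gsta3 from 0.668 and 0 to 31.3 and 46.1 (4.92). The sperm form Gstm5 fell from 3932 and 3462 FPKM to 1889 and 789 (-1.59), and Gstt3 from 92.2 and 96.8 to 32.6 and 23.0 (-1.75, limma adjusted p = 0.00128). The call of Gstm5 was lost without a filter (adjusted p = 0.0940), with only the PD libraries (0.103) and with library weights (0.0514). Gstm5 was not called without WT PD replicate 1 (adjusted p = 0.119), WT PD replicate 2 (0.0922) or Cnot4-null PD replicate 2 (0.152). The falls of the list were 1 instead of 3 without either WT PD library or Cnot4-null PD replicate 2. Gstm genes are close copies of each other, and uniquely mapped reads may miss part of their expression.

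**Figure D5:**
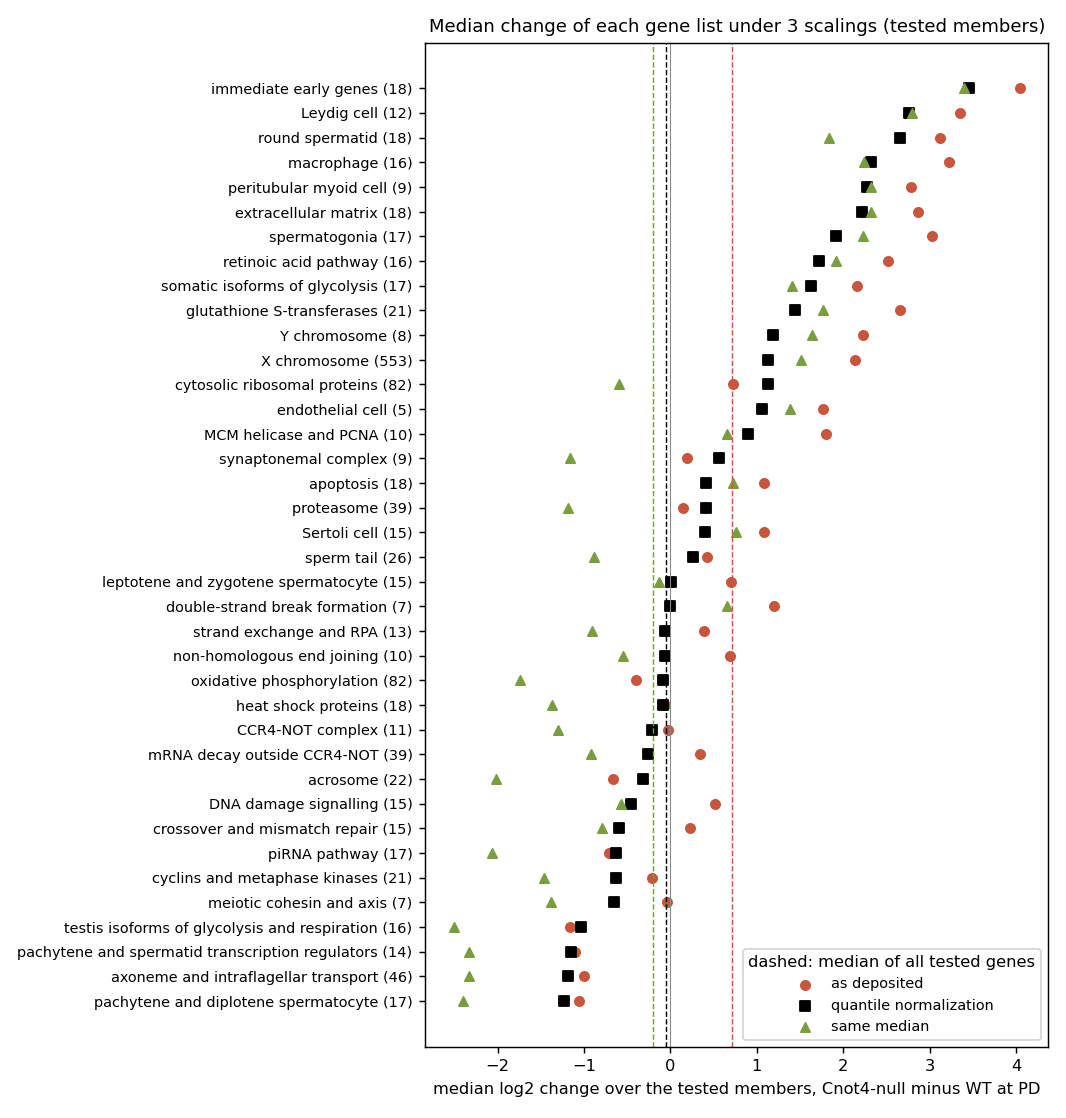
Each row is a gene list with its number of tested members, and the points give the median log2 change from WT to Cnot4-null PD over those members as deposited (red circles), after quantile normalization (black squares) and with each library at the same median (green triangles), with dashed lines at the median of all tested genes. Immediate early, Leydig cell and round spermatid genes lie on the right on all 3 scalings and markers of the PD stage, axoneme genes and testis isoforms on the left, while the medians of ribosomal protein, synaptonemal complex, proteasome, sperm tail, mRNA decay and recombination lists lie above 0 as deposited and below 0 on at least 1 other scaling.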

How the data were processed

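RNA-seq values of 8 libraries were used, 2 for each genotype (WT, Cnot4-null) and stage (LZ, PD), grouped by their labels. Starting values are the deposited FPKM, for which the authors aligned trimmed reads with TopHat2 (2.1.1; mm9), took the reads with a unique position, and ran Cufflinks (2.2.1) on UCSC gene models. They hold no counts, so no counting error is given. A relative step size, which is not a count of sequenced reads, was read from the most common ratio of low values (0.01 to 0.3 FPKM) between 2 libraries.

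Genes above 1 FPKM in at least 1 PD library were tested as log2(FPKM + 1). All 8 libraries entered a model with 4 groups in limma 3.58.1 (R 4.3.3; lmFit, contrasts.fit, eBayes with a trend, 4 residual degrees of freedom), the contrast was Cnot4-null PD minus WT PD, two-sided, with Benjamini-Hochberg adjusted p under 0.05 over all tested genes as the limit. The difference between PD and LZ was tested as an interaction in that model. The procedure was tested on simulated data. Python 3.11.15 with numpy 2.4.6, pandas 2.3.3 and matplotlib 3.10.9 did the rest. GENCODE vM1 (mm9) gave positions and coding status (21943 of 23235 symbols matched, 94.4%), and RefSeq on GRCm38.p6 the promoters, 250 bases before to 50 after the first start site listed.

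Genes named in the text are Cnot4; the 10 coding genes with the largest rise and the 10 with the largest fall that were called as deposited and after quantile normalization, did not overlap between the genotypes and had a mean of at least 10 FPKM in the higher group; the 5 coding genes with the highest mean in each genotype; the 5 called coding genes with the highest mean in each direction; and members of gene lists, up to 6 with the highest mean and up to 3 with the largest change in each direction; and paired isoforms and genes with a printed promoter. The lists are cell type markers and functional groups, and genes of the X and Y chromosomes. Members and lists were chosen with earlier results of these data known. The macrophage marker Adgre1 is listed as Emr1. Some members are not reported here.

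Alternatives were no filter, a mean of at least 5 FPKM, a mean above 1 FPKM in both PD groups, a pseudocount of 0.1, quantile normalization, the same median, the same sum (TPM), only the PD libraries, no trend, library weights, a replicate block, a limit of 0.01, coding genes only, and each PD library left out in turn, where the lone library of a genotype is assumed to vary like the other groups. Quantile normalization of only the PD libraries was chosen after seeing the data.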

Additional observations from a re-analysis of the deposited data

Results flagged for a closer look

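By limma's interaction term, 4845 of the 15349 tested genes had a different genotype effect at PD than at LZ, 4203 with a larger and 642 with a smaller value at PD, while 6 of these tested genes were called at LZ. The following genes were marked because this difference was called. The interaction, as a log2 change at PD minus that at LZ, was 9.83 for Ptgds, 9.14 for Insl3, 8.42 for Fabp3, 8.40 for Aldh1a1, 7.65 for Lcn2, 7.60 for Apoe, 7.35 for Agt, 7.03 for Akr1cl, 6.86 for Hsd3b1 and 6.63 for Fxyd1. It was 5.46 for Prm1 and 4.0 for Lars2. Among genes that were lower in Cnot4-null PD it was -3.96 for Moap1, -3.90 for Neil3, -3.76 for Epyc, -3.72 for Olfr1188, -3.36 for Gm10754, -3.07 for 4933402N22Rik, -2.92 for Gipc2 and -2.31 for Cox7b2. With 2 libraries in a group, no single sample could be tested as standing apart from its group.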

How the results depend on the processing

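Of 34 genes named by the fixed rules for size and level, 29 were called, and 20 of these were called in the same direction under every alternative listed in which they were tested, apart from the last. Agt, Hsd3b1 and Olfr1188 are among them and did not pass the filter of a mean above 1 FPKM in both groups. For the 10 largest rises and 10 largest falls, being called as deposited and after quantile normalization without overlap was a condition of the choice. The count of 20 is therefore partly fixed by that choice. The number of genes called, 8549, was 4738 with a mean of at least 5 FPKM, 4562 with a mean above 1 FPKM in both groups, 4954 at the limit of 0.01, and 4180 to 9996 with single libraries left out. For quantile normalization of only the PD libraries, chosen after seeing the data, it was 5035. Called coding genes, 7939, numbered 4397, 4241, 4655, 3925 to 9305 and 4626 in the same order. The share of rises, 78.1%, was 66.9% with a mean of at least 5 FPKM, 64.0% with a mean above 1 FPKM in both groups, 70.9 to 89.8% with single libraries left out, 43.6% after quantile normalization, 38.7% at the same median and 43.0% after quantile normalization of only the PD libraries. With only the PD libraries 6541 genes were called, 1186 of them lower, and with library weights 6457, 1225 of them lower. These weights were 0.248 for each Cnot4-null PD library and 3.73 for each WT PD library. A higher filter tests fewer genes and a lower limit calls fewer by construction, and the cause of the other differences was not tested.

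The median log2 change, 0.72, was 0.17 without a filter, 0.16 with a mean of at least 5 FPKM, 0.12 with a mean above 1 FPKM in both groups, 1.01 with a pseudocount of 0.1, 0.86 at the same sum and 0.61 to 0.72 with single libraries left out. It was -0.049 after quantile normalization, of all or of only the PD libraries, and -0.21 at the same median.

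With each library at the same median, the direction turned for Rps28 (-0.97) and the medians of leptotene and zygotene genes (-0.13), strand exchange (-0.91), crossover (-0.80), end joining (-0.55), damage signalling (-0.57), mRNA decay (-0.92) and ribosomal proteins (-0.60). Medians of synaptonemal complex (-1.16), proteasome (-1.19) and sperm tail genes (-0.88) turned there too, but already differed in sign between the Cnot4-null PD libraries. After quantile normalization the direction turned for break formation (-0.0059), strand exchange (-0.061), crossover (-0.60), end joining (-0.067), damage signalling (-0.46) and mRNA decay (-0.26). With a mean of at least 5 FPKM it turned for break formation (-0.33) and crossover (-0.52), and with a mean above 1 FPKM in both groups for crossover (-0.37). The cause was not tested. Of 326 list members called higher as deposited, 247 were called higher after quantile normalization and 218 at the same median, where 14 were called lower. Of 121 called lower, 110 and 121 were, and the same median lowers Cnot4-null values relative to WT.

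A block for the replicate number gave 8405 called genes, 77.6% of them higher, with 7804 coding genes. The deviations of same-numbered PD libraries had a correlation of 0.0319. Whether same-numbered libraries share an animal or a day is not stated, and with 2 libraries in a group this correlation cannot decide it.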

Other observations

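The Cnot4-null PD libraries differed in the size of the changes, and for some lists in their presence or direction. The median log2 change from the WT mean was 2.62 in replicate 1 and 4.22 in replicate 2 for Leydig cell markers, 2.50 and 3.59 for matrix genes and 3.20 and 4.74 for immediate early genes. It was 3.87 and 2.45 for round spermatid markers, so this list was higher in replicate 1. For markers of the PD stage it was -0.55 and -1.62, for axoneme genes -0.67 and -1.43 and for piRNA genes -0.47 and -1.04. X-linked genes were at 2.02 and 2.27, MCM genes at 1.85 and 1.74 and somatic glycolysis genes at 2.36 and 2.24, with little difference between the libraries. Oxidative phosphorylation genes were at -0.02 and -0.83, acrosome genes at 0.01 and -1.35 and sperm tail genes at 1.02 and -0.07, so none of these medians was clearly below the WT mean in replicate 1. For all tested genes the medians were 0.61 and 0.71.

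The WT PD duplicates differed in the same somatic genes, at a much lower level. Insl3 was at 104 FPKM in replicate 1 and at 4.90 FPKM in replicate 2, Dcn at 15.4 and 0.148, Ptgds at 16.0 and 1.37 and Gstm1 at 33.4 and 4.63, whereas the Sertoli cell markers Clu and Cst12 were higher in replicate 2, at 15.3 and 36.7 against 8.06 and 8.24 FPKM. Cst12 was also at 93.2 and 85.6 FPKM in WT LZ and at 8.27 and 8.61 in Cnot4-null LZ.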
